A study of Mus musculus with 26 samples.

Results

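Neural progenitor cells (NPCs) in which the Podxl RNA is truncated were compared with wild-type (WT) NPCs across all genes. The comparison rests on 6 of the 26 libraries of the series, 3 of NPC Podxl pA and 3 of NPC WT, chosen by the labels of the samples and not by any measured value. NPC WT was made from E14 mouse embryonic stem cells (ESCs), a feeder-independent ESC line, with no edit. NPC Podxl pA was made from E14 ESCs in which a cassette of a self-cleaving peptide, eGFP and an SV40 polyadenylation signal (pA) had been inserted into both copies of Podxl behind its first exon, so that the RNA is cut short. Both groups were differentiated for 2 days on laminin in N2B27 medium without the inhibitors and cytokine that keep ESCs undifferentiated. The same table holds 3 libraries each of NPC Grb10 pA, a line with the same kind of cassette in Grb10, and of ESC WT, ESC Podxl pA and ESC Grb10 pA. The edited lines were grown from single sorted cells, and how many clones stand behind the 3 Podxl pA libraries is not given in the sources used here. A property of the clone and an effect of the truncation cannot be told apart. The p-values measure only the spread between libraries within groups, estimated from all 18 libraries of these 6 groups.

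Podxl encodes podocalyxin, a transmembrane protein of the CD34 family whose outer part carries many sialylated sugars. Its negative charge keeps membranes apart, as on the foot processes of kidney podocytes and on the apical side of epithelia, and it is also made in pluripotent cells and in the developing brain. The study asked whether RNAs that bind CTCF, the zinc finger protein at the anchors of chromatin loops, act on loops near the place where they are transcribed, and Podxl was 1 of the RNAs it cut short for that question.

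In the mm10 genome with GENCODE M21, Podxl lies on chromosome 6 from 31519488 to 31563981 on the minus strand. Its main transcript has 8 exons and 5379 nt. Exon 1 spans 31563579 to 31563981 and is followed by an intron of 34542 nt. It holds 403 nt, 7.49% of the transcript, and 70 of the 1509 coding bases, which leave 23 whole codons of the 503 of the protein. The guide RNA used for the insertion crosses the border between exon 1 and intron 1. Its other 15 bases were not checked against the genome here. The exact point of insertion was not checked either. Capitals mark the 5 bases that the guide shares with the end of exon 1. The sequences below show the guide, the end of exon 1 and the start of exon 2, 5′ to 3′ along the RNA:
Podxl guide: TAATGgtgagtggacagccg
end of exon 1: tactgtcgcctgcatctcactcccaTAATG
start of exon 2: gaaatgagactagcacatctgctatcaaat
The deposited counts are given for the whole gene, exon 1 included.

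The 6 libraries held between 2935069 and 6513043 counts on genes, with a median of 3015275 in NPC WT and 5311962 in NPC Podxl pA, so that the WT group was less deeply sequenced and limits the precision of low genes. Differences between libraries of a group were as large as those between the groups over all genes, with a root mean square of 0.32 to 0.46 (log2 CPM) within groups and 0.35 to 0.46 between them. The neural marker genes of early NPCs were present. In NPC WT, Sox1 had 391, 373 and 346 normalized counts against a mean of 22 in ESC WT, Pou3f1 had 415, 415 and 395 against 11.8, and Pax6 had 31.7, 36.3 and 42.4 against 12. Normalized counts are counts scaled to a common library size and are not corrected for gene length. The pluripotency gene Pou5f1 was still at 1338, 1478 and 1561 in NPC WT, against a mean of 2543 in ESC WT, and genes of extraembryonic endoderm were present in WT as well as in Podxl pA, as described further on.

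The targeted gene had the largest fold change and the smallest p-value of the called genes. Podxl had 1082, 1152 and 1209 normalized counts in NPC WT and 104, 113 and 97.2 in NPC Podxl pA. The groups did not overlap, and WT was 10.9-fold higher. The log2 fold change was -3.45 (standard error 0.15, adjusted p = 9.72e-15, edgeR's quasi-likelihood test). NPC Grb10 pA had 1526, 1710 and 1697, so that the second edited line was above WT. In ESCs, Podxl had 158, 163 and 123 in WT and 14, 16 and 60.1 in Podxl pA, so that replicate 3 of ESC Podxl pA stood above the other two. The log2 fold change was -2.73, and the difference between the effects in the cell types was not called (-0.72, 95% interval -1.39 to -0.04, adjusted p = 0.456). Without that replicate these values were -3.31 and -0.15, an alternative chosen after seeing the data. The other 2 genes of the podocalyxin family were not dysregulated in NPC Podxl pA. Podxl2, which encodes endoglycan, had a log2 fold change of 0.04 (95% interval -0.74 to 0.82) from few counts. Cd34 had 49.8, 56.3 and 45.6 normalized counts in WT and 70.7, 65.8 and 63.0 in Podxl pA, and the log2 fold change was 0.36 (95% interval -0.09 to 0.81, adjusted p = 0.624). Of 11 tested genes for proteins that bind podocalyxin or carry it through the cell, none was dysregulated, beside 0.55% of all genes tested. No call among 11 genes is near that background. Among them were ezrin (Ezr) and the adaptor NHERF1 (Slc9a3r1), and the median log2 fold change of the 11 was -0.07.

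Of 13268 genes tested, 73 (0.55%) were dysregulated in NPC Podxl pA relative to NPC WT, with cutoffs of 0.05 for the adjusted p-value and 0.5 for the absolute log2 fold change. A total of 51 (0.384%) were up-regulated and 22 (0.166%) down-regulated. In 30 of the 73 the change was at least 2-fold, 23 up and 7 down, and the median size over the 73 was 0.81 on the log2 scale. In all 73, every Podxl pA library lay beyond every WT library. The 73 were selected on these same libraries, so this is no added support. Over all genes tested, 10.6% had all Podxl pA libraries higher and 10.2% all lower. The median log2 fold change over all genes was 0.00. An unadjusted p below 0.05 was reached by 1350 genes. Leaving out WT replicate 1, WT replicate 2 or Podxl pA replicate 2 brought the count to 48, 44 and 44, and a fit of the 6 libraries alone brought it to 133.

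**Figure D1:**
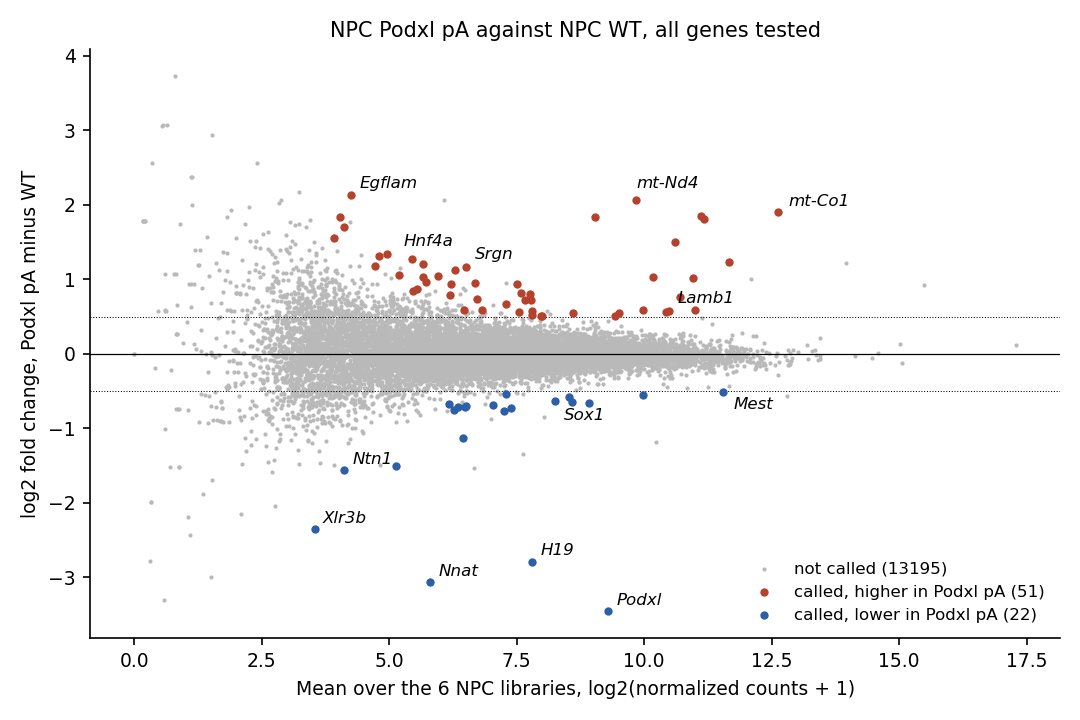
Log2 fold change in NPC Podxl pA relative to NPC WT (vertical axis) against the mean level over the 6 libraries, as log2 of normalized counts plus 1 (horizontal axis), with a point for each of the 13268 genes tested. The 51 up-regulated genes are red, the 22 down-regulated genes blue, and dotted lines mark a log2 fold change of 0.5 in either direction. Podxl, Nnat and H19 lie furthest below 0 among the called genes, and 28 of the 51 red points lie below a log2 fold change of 1.

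Among the called genes, the largest falls after Podxl were those of Nnat and H19, and both are imprinted. Imprinted genes are expressed from the maternal or the paternal copy only. Of 36 tested genes of an imprinted list, 4 (H19, Nnat, Impact and Mest) were down-regulated, beside 0.166% of all genes tested, and none was up-regulated. The median over the list was 0.02. H19, a maternally expressed long noncoding RNA on chromosome 7, had 284, 443 and 437 normalized counts in WT and 47.9, 58.8 and 60.7 in Podxl pA. The log2 fold change was -2.79 (standard error 0.20, adjusted p = 8.93e-10). It stood at 36.2, 60.5 and 66.2 in NPC Grb10 pA, level with Podxl pA (log2 difference 0.11, 95% interval -0.37 to 0.59), so that WT was the group apart for this gene. Its neighbour Igf2 had a log2 fold change of 0.22 (adjusted p = 0.810).

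Nnat, which encodes the membrane protein neuronatin and is paternally expressed, showed another order of the lines. It had 115, 112 and 67.6 normalized counts in WT, 7.19, 9.66 and 17.1 in Podxl pA and 244, 267 and 238 in Grb10 pA. The log2 fold change against WT was -3.06 (standard error 0.29). Nnat lies inside Blcap on the opposite strand, and since strand was not used in the counting, reads shared by the pair cannot be told apart. Blcap itself had a log2 fold change of 0.01. Impact, which encodes a regulator of translation, had 1194, 1187 and 1217 in WT and 804, 825 and 828 in Podxl pA, and the log2 fold change was -0.55. Mest, whose product belongs to the hydrolase family, had 3303, 3660 and 3559 in WT and 2438, 2429 and 2485 in Podxl pA, and the log2 fold change was -0.52. Grb10 pA overlapped with Podxl pA for Mest (1934, 2476 and 2238), while for Impact it lay above both groups (1238, 1229 and 1285). Mest lost its call without WT replicate 2 and without a filter on low counts.

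The neural progenitor marker Sox1 was down-regulated. It encodes the SoxB1 transcription factor by which neural progenitors of this protocol are usually recognised. Sox1 had 391, 373 and 346 normalized counts in WT and 245, 228 and 243 in Podxl pA, and the log2 fold change was -0.63 (standard error 0.11, adjusted p = 0.00268). Its call was kept in each of 15 alternatives that used the same cutoffs, and its change was under 2-fold. Grb10 pA was lower still, at 103, 142 and 114. Of 13 tested genes of a neural progenitor list, Sox1 was the only 1 called, beside 0.55% of all genes tested. The median of the list was 0.09. Sox2, Pax6 and Nes, the gene of the intermediate filament nestin, had log2 fold changes of 0.09, -0.24 and 0.12 with overlapping groups. In lists of regional patterning (12 tested) and of neurogenesis and early neurons (15 tested) no gene was called, beside 0.55% of all genes tested. Their medians were -0.14 and 0.04. In bulk samples such as these, fewer cells of a type and less RNA per cell cannot be told apart.

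**Figure D2:**
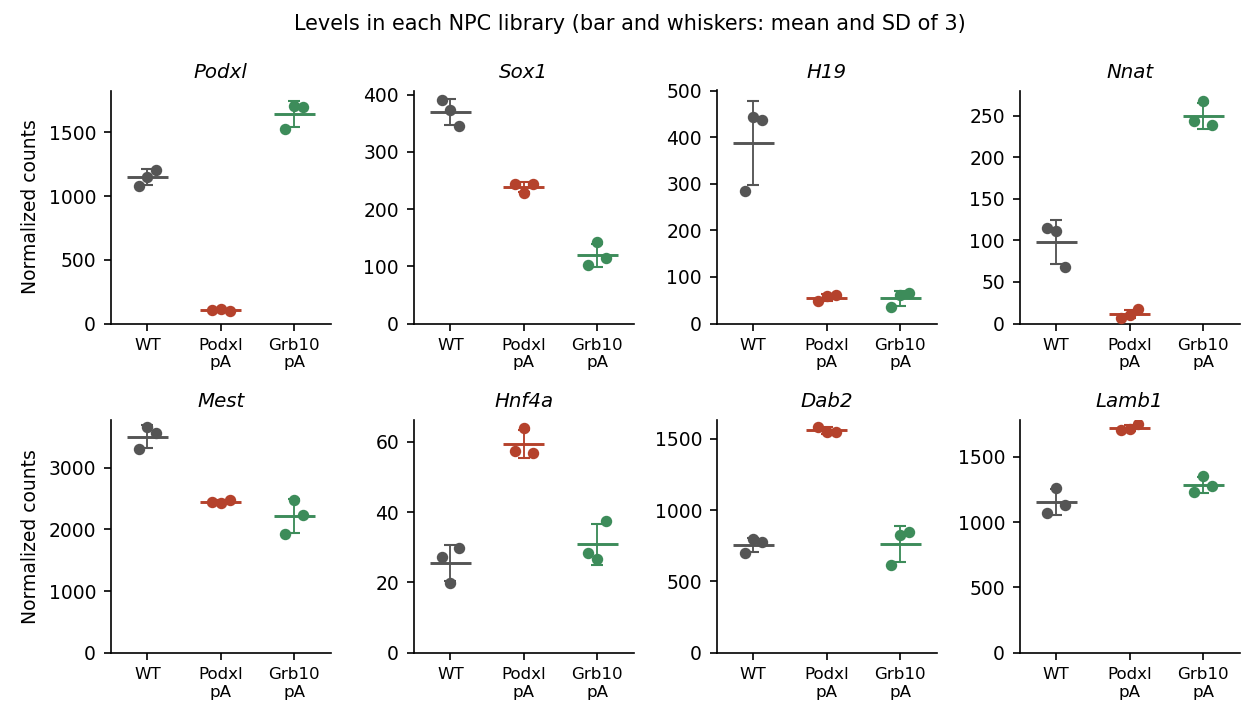
Normalized counts of 8 genes in each NPC library of WT, Podxl pA and Grb10 pA, with a point for each library and the mean and SD of 3 as bar and whiskers. Podxl and Nnat are lowest in Podxl pA, H19 is low in both edited lines, Sox1 is lowest in Grb10 pA, and Hnf4a, Dab2 and Lamb1 are highest in Podxl pA.

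Other down-regulated genes formed no list of their own. The single calls in the lists named in this paragraph stand beside 0.55% of all genes tested. Meox1, a homeobox gene of paraxial mesoderm, had 96.6, 125 and 132 normalized counts in WT and 45.5, 54.4 and 59.9 in Podxl pA, and the log2 fold change was -1.13. Grb10 pA had 26.8, 45.3 and 39.9. It was the only called gene among 10 tested of a mesoderm list, whose median was -0.36. Ntn1, the gene of the axon guidance protein netrin-1, had 21.1, 27.8 and 25.2 in WT and 3.60, 7.90 and 12.4 in Podxl pA, and its call was lost without WT replicate 2, Podxl pA replicate 1 or Podxl pA replicate 2. It was the only called gene of 30 tested of an axon guidance list. Hhip, whose product binds and holds back Hedgehog ligands, was the only called gene of 12 tested of the Hedgehog pathway, with a log2 fold change of -0.70, and lost its call with each library left out in turn, with DESeq2, without a filter on low counts and with a replicate block. Log2 fold changes between -0.76 and -0.65 were also found for P2rx3 (an ATP-gated channel), Plcd1 (phospholipase C delta 1), Cnn2 (calponin 2, an actin-binding protein), Tspyl4, Trh (the precursor of thyrotropin-releasing hormone), Pls3 (the actin-bundling plastin 3), Klf12 (a zinc finger repressor), Pkdcc (a secreted protein kinase) and Serpinf1 (pigment epithelium-derived factor). Cnn2 and Serpinf1 kept their calls with each library left out in turn, Pkdcc lost its call without WT replicate 2, and the others lost theirs with between 3 and 5 of the 6 libraries left out in turn. Tspyl4 and Klf12 also lost their calls with DESeq2 and without a filter on low counts, and Tspyl4 with a replicate block.

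On the X chromosome, 11 of 473 tested genes were called, 6 up and 5 down, which is 2.33% of them, beside 0.55% of all genes tested and 0 to 0.959% on the autosomes. Xlr3a and Xlr3b belong to a cluster of X-linked genes that lie side by side as near-identical copies. Xlr3a had 51.3, 45.6 and 53.4 normalized counts in WT and 21.6, 21.1 and 10.9 in Podxl pA, and the log2 fold change was -1.5. Xlr3b, at 15.1, 17.8 and 20.4 in WT and 3.60, 4.39 and 2.33 in Podxl pA, had one of -2.35, and its call was lost without Podxl pA replicate 3. Reads of such copies may have been split or left out by the counting, so that the values of either copy are uncertain. Nxf7 had the largest rise on the X chromosome among genes named by size. It belongs to the nuclear RNA export factor family and had 64.9, 68.4 and 73.9 normalized counts in WT and 144, 119 and 138 in Podxl pA (log2 fold change 0.95). Close to it was Taf7l, a germ cell relative of a general transcription factor subunit, with 0.94. It was the only called gene of 18 tested in a list of germline genes, beside 0.55% of all genes tested. Its level was as high in Grb10 pA (98.7, 100 and 90.9) as in Podxl pA (98.3, 98.3 and 94.9).

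Among the gene lists, that of extraembryonic endoderm had the most up-regulated members. This tissue lies around the early embryo, where its visceral part takes up and secretes proteins and its parietal part lays down a thick basement membrane. Of 24 tested genes of the list, 12 were up-regulated, beside 0.384% of all genes tested, and none was down-regulated. Their median log2 fold change was 0.59, and in 20 of the 24 every Podxl pA library was above every WT library, beside 10.6% of all genes tested. With each library left out in turn, 9 to 11 of them were up-regulated. The transcription factor Hnf4a had 27.2, 20 and 29.9 normalized counts in WT and 57.5, 64.1 and 56.8 in Podxl pA, and the log2 fold change was 1.28 (standard error 0.26, adjusted p = 0.0117), a call that was lost without WT replicate 2 or Podxl pA replicate 2. Srgn, the gene of the proteoglycan serglycin, had 55.9, 62.0 and 44.0 in WT and 158, 112 and 107 in Podxl pA, with 1.17.

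Also called were Dab2 and Cubn, which serve the uptake of proteins. Dab2, an adaptor of endocytosis, had 702, 794 and 777 normalized counts in WT and 1584, 1544 and 1545 in Podxl pA, and the log2 fold change was 1.04 (standard error 0.13, adjusted p = 4.3e-05). Cubn, the gene of the uptake receptor cubilin, had 1104, 1666 and 1127 in WT and 2589, 2554 and 2811 in Podxl pA, with 1.02, and its call was lost with DESeq2 and without WT replicate 1 or WT replicate 3. Lrp2, whose product megalin acts with cubilin, was not called, with a log2 fold change of -0.01 (95% interval -0.22 to 0.21). Apob, the gene of apolipoprotein B and not on the list, had 36.2, 45.6 and 34.6 in WT and 75.5, 86.9 and 85.5 in Podxl pA, with 1.05, and kept its call only without Podxl pA replicate 1 when a library was left out. Further called genes of the extraembryonic endoderm list, given here after their values were seen, were the basement membrane genes Lama1, Lamb1, Col4a1 and Col4a2 (log2 fold changes between 0.57 and 0.59), the receptor gene Pdgfra (0.80), the transcription factor gene Gata4 (0.72) and Cited1 (0.59). The call of Cited1 was lost with each library left out in turn, and that of Lama1 without WT replicate 1 or Podxl pA replicate 3. A separate list held other basement membrane, matrix and integrin genes. Of its 26 tested genes none was called, beside 0.55% of all genes tested. Their median log2 fold change was 0.01, with 13 values above 0 and 13 below.

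Not every gene of the tissue passed. Gata6 had 220, 211 and 264 normalized counts in WT and 297, 339 and 357 in Podxl pA, and the log2 fold change was 0.53 with an adjusted p of 0.0811. Sox17 had 25.7, 38.5 and 50.3 in WT and 61.1, 55.3 and 79.3 in Podxl pA, with 0.78 and 0.195. Lamc1 passed the p-value cutoff (adjusted p = 0.0168) but not the fold cutoff, with 0.40. Afp and Ttr, markers of mature visceral endoderm, were too low to be tested, with 0 to 6 counts of Afp and 0 to 11 of Ttr in each of the 6 libraries. Summed over the 26 genes of the list in the table, normalized counts ranged from 12766 to 16013 in NPC WT, from 20164 to 21033 in NPC Podxl pA and from 12875 to 15019 in NPC Grb10 pA, so that Podxl pA was above both other groups and did not overlap with them. No gene of the list was at 0 in all 6 libraries. These genes mark another cell type than neural progenitors. How much of the other changes goes with them was not tested. In ESC WT, Dab2, Cubn and Pdgfra had means of 11.8, 1.74 and 3.56, so that these messages appeared on differentiation in WT too.

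**Figure D3:**
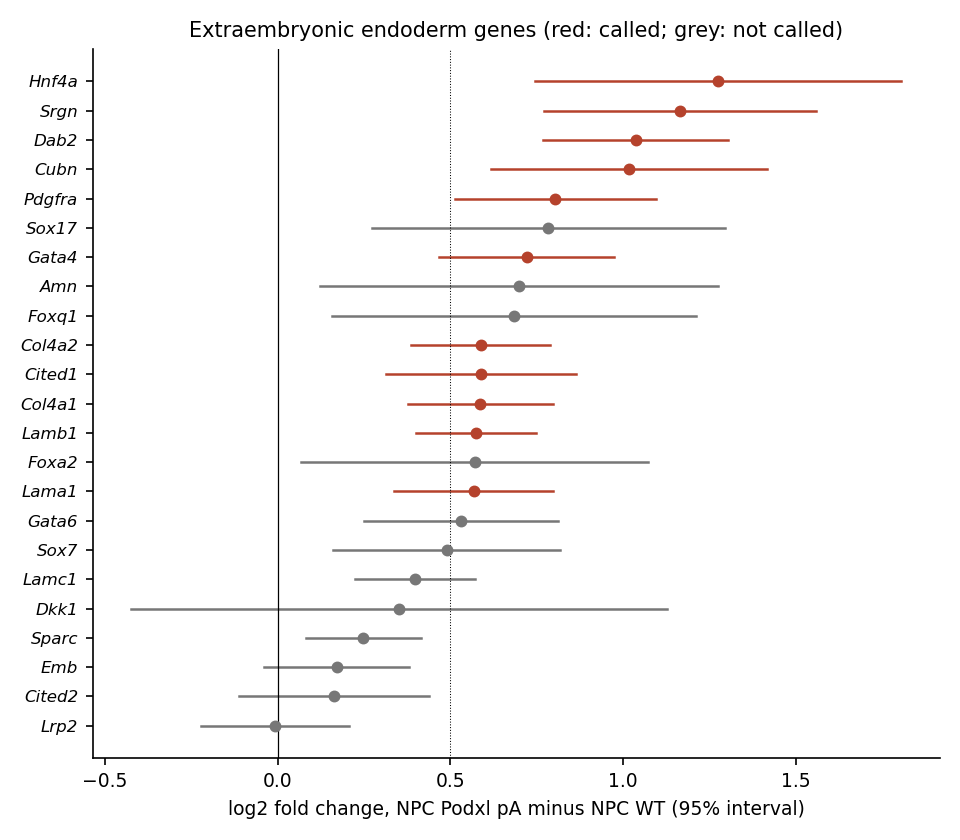
Log2 fold change in NPC Podxl pA relative to NPC WT (horizontal axis) for 23 of the 24 tested genes of the extraembryonic endoderm list, with points for the estimates and lines for 95% intervals. The 11 up-regulated genes shown are red and the 12 that were not called are grey. All estimates but that of Lrp2 lie above 0, and the dotted line marks the fold cutoff of 0.5.

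The other group to rise was that of the messages encoded in mitochondrial DNA, which code for subunits of the respiratory chain and are transcribed as long precursors from both strands of a small circular genome. Of 13 such genes, 6 were at 0 counts in all 6 libraries and 7 were tested. All 7 were up-regulated, beside 0.384% of all genes tested. The genes at 0 were mt-Co2, mt-Co3, mt-Atp6, mt-Atp8, mt-Nd3 and mt-Nd4l. Why they had no counts was not tested, so the 0 is not read as absence of these RNAs. Shares of counts given below cover the 7 detected messages only. mt-Nd4, for a subunit of complex I, had 308, 205 and 586 normalized counts in WT and 1599, 1663 and 1138 in Podxl pA, and the log2 fold change was 2.06 (standard error 0.26, adjusted p = 4.3e-05). mt-Co1, for a subunit of complex IV, had 3009, 1408 and 3627 in WT and 10513, 10033 and 9261 in Podxl pA, with 1.90. The others were mt-Nd5 (1.85), mt-Nd6 (1.83), mt-Cytb (1.81), mt-Nd2 (1.5) and mt-Nd1 (1.23). The calls of mt-Nd1 and mt-Nd2 were lost with DESeq2 and without WT replicate 1, WT replicate 2, Podxl pA replicate 1 or Podxl pA replicate 2. mt-Nd6 and mt-Nd5 overlap on opposite strands.

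As a share of all counts, the 7 messages made up 0.174%, 0.0961% and 0.256% in the WT libraries and 0.620%, 0.588% and 0.471% in the Podxl pA libraries, with 95% Wilson intervals of at most 0.0078 percentage points to either side, which cover counting error only. The shares spread widely within WT, and the highest of them was below the lowest in Podxl pA. NPC Grb10 pA had 0.221%, 0.278% and 0.269%. Relative to WT, mt-Co1 (log2 fold change 0.86), mt-Nd5 (0.73) and mt-Nd6 (0.88) were also up-regulated in NPC Grb10 pA. mt-Nd4 (0.63), mt-Nd2 (0.50), mt-Cytb (0.29) and mt-Nd1 (0.10) were not called there. The mitochondrial ribosomal RNAs, which the depletion of ribosomal RNA removes in part, spread widely within groups and were not called. mt-Rnr1 had 374, 941 and 7478 normalized counts in WT and 10638, 5811 and 1154 in Podxl pA. mt-Rnr2 had 6156, 5050 and 17640 in WT and 29380, 22739 and 14668 in Podxl pA, and the log2 fold change was 1.21 (adjusted p = 0.125). Among 84 tested genes for respiratory chain subunits encoded in the nucleus, none was called, beside 0.55% of all genes tested. Their median log2 fold change was -0.05, and the list was drawn up after the values were seen. Without the mitochondrially encoded genes in the fit, 66 genes were dysregulated, all of them among the 73.

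**Figure D4:**
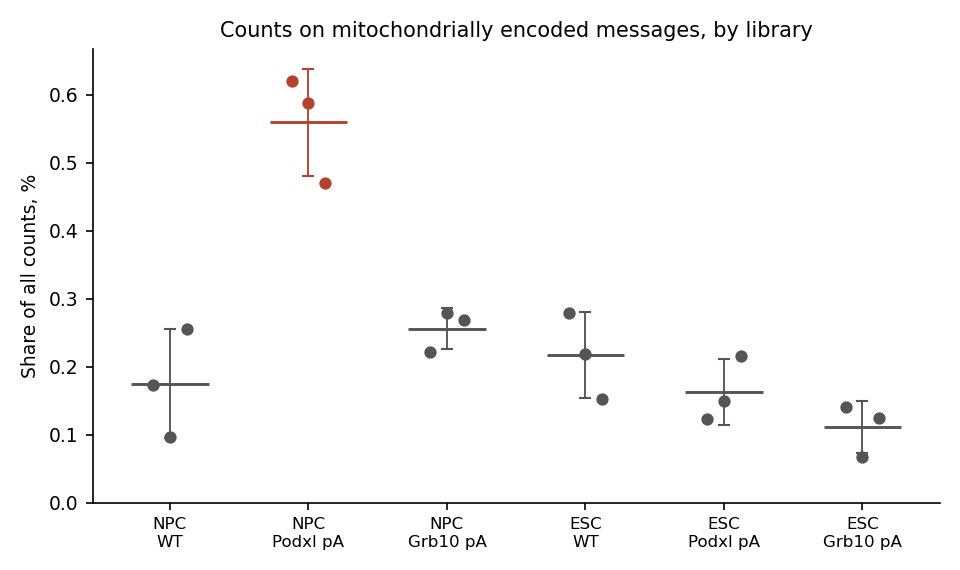
Share of all counts on the 7 detected mitochondrially encoded messages, in percent, in each of the 18 libraries by group, with the mean and SD of 3 as bar and whiskers. The NPC Podxl pA libraries, in red, lie at 0.620%, 0.588% and 0.471%, above every other library of the table.

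Further up-regulated genes belonged to other lists or to none. Crebrf, for a regulator of the transcription factor CREB3, had 40.8, 36.3 and 28.3 normalized counts in WT and 67.1, 62.3 and 77.0 in Podxl pA, and the log2 fold change was 0.96. Grb10 pA had 88.2, 91.8 and 79.0. The call of Crebrf was lost without WT replicate 2, WT replicate 3 or Podxl pA replicate 3. From the naive pluripotency list, Tbx3 was up-regulated (0.72), a call lost without WT replicate 1 or Podxl pA replicate 3. The other 17 tested genes of that list were not called, with 0.55% of all genes tested called. Of 15 genes of the two-cell-like state in the table, 2 were high enough to be tested. Zscan4d, which has near-identical copies, had 1.51, 7.13 and 11 in WT and 26.4, 23.7 and 22.6 in Podxl pA, with 1.84, and lost its call with each library left out except WT replicate 3. Its copy Zscan4c had 0.33 with overlapping groups. The largest rise of all was that of Egflam, the gene of the matrix protein pikachurin, named here after its values were seen, with 7.55, 7.84 and 3.14 in WT and 37.2, 25.5 and 27.2 in Podxl pA and a log2 fold change of 2.14. Amot, for the scaffold protein angiomotin, and Nrg1, for the growth factor neuregulin 1, were likewise chosen after their values were seen. Amot had 1200, 1253 and 1251 in WT and 2035, 2033 and 2208 in Podxl pA, and Nrg1 had 127, 123 and 126 in WT and 223, 233 and 258 in Podxl pA, with log2 fold changes of 0.76 and 0.93.

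The question of the study concerns effects near the truncated gene, so genes around Podxl were examined one by one. Within 1 Mb of Podxl the annotation lists 44 genes with Podxl itself, of which 33 had under 10 counts over the 6 libraries and 7 were tested. Of the 6 tested besides Podxl, 1 was called, beside 0.55% of all genes tested. It was the imprinted gene Mest, which lies 771 kb away. Mest was also lower than WT in NPC Grb10 pA (log2 fold change -0.67), where Podxl was not cut short. In ESC Podxl pA it was not called, with -0.11 relative to ESC WT. Mkln1, the nearest tested gene at 2.68 kb, codes for the muskelin protein of a ubiquitin ligase. It had 533, 460 and 475 normalized counts in WT and 485, 482 and 474 in Podxl pA, and the log2 fold change was -0.02 (95% interval -0.20 to 0.16). Copg2, for a subunit of the COPI vesicle coat, had 559, 484 and 523 in WT and 514, 505 and 559 in Podxl pA, with 0.02 (95% interval -0.17 to 0.21), although it overlaps Mest on the other strand. Cep41 and Gm13835 lay between -0.03 and 0.14 with overlapping groups.

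Of 19 tested genes of the CTCF and cohesin machinery, none was called, beside 0.55% of all genes tested. No call among 19 genes is near that background. Their median log2 fold change was 0.02. Ctcf had 1019, 982 and 1012 normalized counts in WT and 991, 1031 and 1020 in Podxl pA, and the log2 fold change was 0.02 (95% interval -0.13 to 0.16). Rad21, a cohesin subunit, had 0.04 (95% interval -0.13 to 0.20). Smc3, another, had 909, 1066 and 1023 in WT and 1197, 1211 and 1216 in Podxl pA, with 0.27 (95% interval 0.11 to 0.43) and an adjusted p of 0.144. Altogether, 27 of the 38 gene lists examined had no called member, among them the Notch, Wnt and BMP pathways, FGF and ERK feedback, retinoic acid response, p53 targets, apicobasal polarity, cadherins, Hox genes, clustered protocadherins and cholesterol synthesis. These 27 lists hold 499 tested genes. With 0.55% of all genes tested called, a single list without a called gene is near the background and is no result about that list.

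The same edit was also sequenced in ESCs, in libraries that the NPC comparison does not share. There, 45 genes (0.339%) were dysregulated in ESC Podxl pA relative to ESC WT, 11 up (0.0829%) and 34 down (0.256%). Of the 73 genes of the NPC comparison, 6 were called in ESCs too, all 6 down in both, which is 8.22% of the 73 and 13.3% of the 45. They were Podxl, Xlr3a, Klf12, Serpinf1, Gm364 and Impact. Impact had log2 fold changes of -0.55 in NPCs and -0.54 in ESCs, Serpinf1 of -0.65 and -0.80, Klf12 of -0.68 and -1.02, Xlr3a of -1.5 and -1.29, and Gm364 of -0.58 and -0.77. In NPCs the call of Gm364 was lost without WT replicate 1, WT replicate 2, Podxl pA replicate 1 or Podxl pA replicate 2. H19 and Meox1 had at most a few normalized counts in ESC WT, so that their fall could not be followed there. Cubn had 2.03, 3.19 and 0 in ESC WT and 0, 4.37 and 52.9 in ESC Podxl pA, and was not called. The high value was that of replicate 3, which also stood above the other ESC Podxl pA libraries for Podxl. That library had the fewest counts of the 18 (1907505). Over all genes tested, the effect of the truncation differed between the cell types in 13 (0.098%), more positive in NPCs in 9 (0.0678%) and more negative in 4 (0.0301%). For 7 of the 73 the effect differed between the cell types past both cutoffs: mt-Nd4, mt-Cytb, mt-Nd5, mt-Nd6, mt-Co1, Cnn2 and Dlc1. The difference is computed from the same NPC libraries that selected the 73. Genes with a large effect in NPCs are thereby favoured, and the count of 7 is no separate support.

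**Figure D5:**
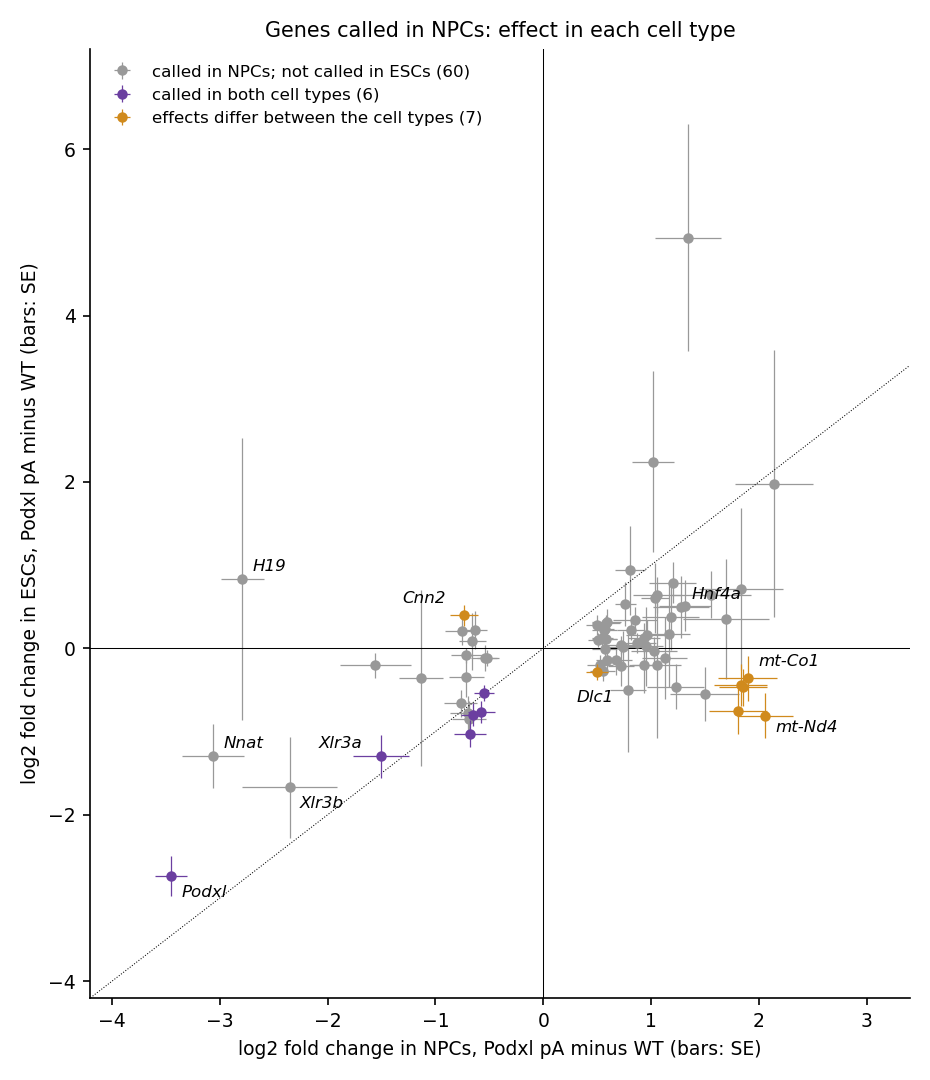
Log2 fold change of Podxl pA relative to WT in NPCs (horizontal axis) and in ESCs (vertical axis) for the 73 genes dysregulated in NPCs, with standard errors as bars and a dotted line where both are equal. The 6 genes called in both cell types (purple) all lie below 0 on both axes, and 7 genes whose effects differed between the cell types are orange.

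Against NPC Grb10 pA, the other truncation line, 2190 genes (16.5%) differed in NPC Podxl pA, 1195 higher (9.01%) and 995 lower (7.5%). This comparison shares the Podxl pA libraries with the one against WT, so values are given side by side and their overlap is not counted. The log2 difference of Podxl was -3.45 against WT and -3.97 against Grb10 pA, that of Nnat -3.06 and -4.38, that of Xlr3a -1.5 and -1.99, and that of Impact -0.55 and -0.61. For Hnf4a the 2 values were 1.28 and 0.94, for Dab2 1.04 and 1.04, and for mt-Nd4 2.06 and 1.43. Sox1 had -0.63 against WT and 1.02 against Grb10 pA, since it was lower in Grb10 pA than in both other groups. Trh had -0.71 and 2.07, and Hhip -0.70 and 1.44. H19 had -2.79 and 0.11, Mest -0.52 and 0.15, and Taf7l 0.94 and 0.01, and none of these 3 was called against Grb10 pA.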

How the data were processed

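RNA-seq counts of 18 libraries (6 groups of 3) were used, and the CTCF rescue libraries of the series were not used here. Per the labels and the study's methods, total RNA was depleted of ribosomal RNA, primed with random hexamers and sequenced from a directional kit. The authors aligned reads to mm10 with STAR and deposited raw counts per gene from featureCounts, made without strand. Versions and the annotation are not given in the sources used here. The table has 3 further columns that match no sample and were left out.

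Genes kept by edgeR's filterByExpr were tested with edgeR 4.0.16 (R 4.3.3; TMM factors, quasi-likelihood test) in 1 fit of all 18 libraries, with Benjamini-Hochberg adjustment over all genes. Normalized counts are counts scaled to the mean effective library size of 4664294. Symbols were matched to GENCODE M21 for positions. Replicate numbers come from the labels and were not used for pairing. No replicate pair differed by as little as sampling noise. The scripts were tested on simulated data.

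The comparison and the gene lists were chosen with earlier results of these data known. Named were Podxl and its family, genes within 1 Mb of it, the 15 largest called rises and falls whose mean reached 50 normalized counts, up to 4 called genes of each list, Sox1, Ctcf, Rad21 and Smc3. Other genes named were chosen after their values were seen, and some genes that meet the rules are not reported here. The alternatives were DESeq2 1.42.0, other size factors, other filters and cutoffs, fewer libraries, a replicate block and each library left out.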

Additional observations from a re-analysis of the deposited data

Results flagged for a closer look

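The effect of the Podxl truncation differed between NPCs and ESCs in 13 genes (0.098% of those tested) by a test of the difference itself, with the same cutoffs as elsewhere. The difference is the log2 fold change of Podxl pA relative to WT in NPCs minus that in ESCs. It was positive in 9 and negative in 4.

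The 5 largest positive differences were those of mitochondrially encoded messages. They were 2.87 for mt-Nd4 (adjusted p = 4.57e-04, edgeR), 2.56 for mt-Cytb, 2.32 for mt-Nd5, 2.27 for mt-Nd6 and 2.26 for mt-Co1. Their log2 fold changes in ESCs lay between -0.81 and -0.36 and none was called there. The ESC libraries had 0.278%, 0.219% and 0.152% of counts on such messages in WT and 0.123%, 0.149% and 0.216% in Podxl pA, so that the groups overlapped.

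Cnn2, for the actin-binding protein calponin 2, fell in NPCs and had 191, 206 and 212 normalized counts in ESC WT and 234, 279 and 293 in ESC Podxl pA, a difference of -1.13. Dlc1, for a regulator of the actin cytoskeleton, rose in NPCs (0.50) and had -0.29 in ESCs, a difference of 0.79. The other 6 were not called in NPCs. Ccn2, for a secreted matricellular protein, had a difference of -1.36, Tubb3, for the neuronal tubulin beta 3, one of -0.66, and Lin28a, for an RNA-binding protein of early embryonic cells, one of -0.63. Malat1, a nuclear long noncoding RNA, had 0.63, Ubn2, for a subunit of a histone chaperone, 0.64, and Dnah8, for a dynein heavy chain, 0.96.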

How the results depend on the processing

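Podxl kept its call throughout, with log2 fold changes between -3.51 and -3.39. The 73 dysregulated genes became 133 in a fit of the 6 libraries alone, 40 at an adjusted p of at most 0.01, 30 when a 2-fold change was asked for, and 44 to 60 with a library left out. DESeq2 called 66, of which 61 were among the 73, and gave 6 of the 73 no adjusted p. Without a filter on low counts 107 were called, and without mitochondrially encoded genes, an alternative chosen after seeing the data, 66. The 13 differences between cell types became 35 with DESeq2, 108 without a filter, 56 in a fit of the 12 libraries compared, 6 at the stricter p and 7 at the stricter fold, and 6 to 28 with a library left out. Without NPC Podxl pA replicate 2, ESC WT replicate 1 or ESC WT replicate 2 there were 7, and without ESC Podxl pA replicate 2 there were 6. Without ESC WT replicate 3 there were 28, and without ESC Podxl pA replicate 3 there were 25. Against Grb10 pA, 2190 became 615 at the stricter fold and 1856 to 2080 with a library left out. The cause of these changes was not tested beyond what each setting changes. With the replicate number as a block, 73 genes were called, 65 of them among the 73, Podxl had -3.46, and 15 differences between cell types and 2126 genes against Grb10 pA were called. The labels do not say whether same-numbered libraries shared more than a number. Between NPC WT and NPC Podxl pA, their deviations from the group means had correlations of -0.03, 0.05 and -0.05. Single genes and lists were followed only in the 15 settings that kept both cutoffs, not at the stricter p or fold. In those settings the extraembryonic endoderm list had 9 to 14 up-regulated genes and the mitochondrial messages 5 to 7. Of the 73 calls, 30 held in each of the 15 settings that gave a value and 43 were lost in at least 1. None of the 73 changed direction in these settings, and changes of sign in genes that were not called were not counted. At this depth, 1 count in the 6 libraries was worth between 0.713 and 1.57 normalized counts, which limits what can be said of low genes such as Egflam, Zscan4d and Xlr3b.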

Other observations

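Grb10, the gene cut short in the other edited line, was lower in NPC Podxl pA without reaching the fold cutoff. It had 3587, 3742 and 3798 normalized counts in WT and 2733, 2755 and 2732 in Podxl pA, and the log2 fold change was -0.44 (95% interval -0.59 to -0.28, adjusted p = 0.00248, edgeR). In ESCs it had a log2 fold change of 0.08.

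Of 18 tested genes of the amino acid and unfolded protein response, 17 had a negative log2 fold change, with a median of -0.19, and in 10 every Podxl pA library was below every WT library, beside 10.2% of all genes tested. None was called, beside 0.55% of all genes tested. Among 86 tested genes of cytosolic ribosomal proteins, 67 were negative, with a median of -0.07, and none was called, beside the same share. Over all genes tested the median was 0.00.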
